A study of Mus musculus with 6 samples.

Results

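A set of 10 genes that mark lipid-associated macrophages was followed in mouse fat before grafting and 7 days after it: Trem2, Spp1, Gpnmb, Lgals3, Cd9, Cd63, Lipa, Clec7a, Itgax and Atp6v0d2. They were chosen by gene name, with earlier results of these data known, and all 10 were found among the 12163 genes of the deposited table. RNA sequencing covered wild type C57BL/6 mice, with 3 libraries of fat before grafting and 3 libraries of fat at day 7 after grafting. The submitters call the libraries of each group biological replicates. Both groups share strain, genotype and tissue, while depot, graft site, sex and age do not appear in the labels used here. Values are normalized read counts, that is, gene reads that the authors scaled by a single factor for each library. The listed genes took 13027776 to 15924559 reads in each library.

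Lipid-associated macrophages gather around dying or overfilled fat cells, take up their lipid and break it down in lysosomes. TREM2 is a surface receptor for lipids and lipoproteins that signals through the adaptor TYROBP, and in fat it is needed for much of this programme. The other genes divide by role into surface receptors (Clec7a, Itgax), secreted proteins (Spp1, Lgals3), lysosomal proteins (Lipa, Atp6v0d2, Gpnmb) and tetraspanins of the cell surface and endosomes (Cd9, Cd63).

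To show the regulatory sequence beside the values, the 250 bases upstream of their starts in RefSeq (GRCm38.p6) were searched on both strands for binding motifs of factors of the macrophage and lysosomal programmes. RefSeq promoter entries matched 9 of the 10 genes, with 11 start sites, Atp6v0d2 being the one without a match. The motifs were CACGTG (the E-box of the MITF and TFE factors), TCATGTG (the M-box), the palindromic CLEAR motif of lysosomal genes (which holds the E-box within it), GAGGAAGT (PU.1) and TGANTCA (AP-1). The AP-1 motif was searched in a loose form with any base at N, so TGAATCA counts as well as TGAGTCA. One motif was present in each of 3 promoters, those of Trem2 (TGAATCA), Spp1 (GAGGAAGT) and Itgax (TGAGTCA), which are shown with the motif in capitals.
Trem2, chr17:48346151-48346400, plus strand: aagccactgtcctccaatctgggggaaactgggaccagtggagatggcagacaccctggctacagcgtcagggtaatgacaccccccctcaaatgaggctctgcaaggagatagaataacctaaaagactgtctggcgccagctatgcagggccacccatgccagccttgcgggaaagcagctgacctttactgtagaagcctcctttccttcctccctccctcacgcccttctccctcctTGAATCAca
Spp1, chr5:104434861-104435110, plus strand: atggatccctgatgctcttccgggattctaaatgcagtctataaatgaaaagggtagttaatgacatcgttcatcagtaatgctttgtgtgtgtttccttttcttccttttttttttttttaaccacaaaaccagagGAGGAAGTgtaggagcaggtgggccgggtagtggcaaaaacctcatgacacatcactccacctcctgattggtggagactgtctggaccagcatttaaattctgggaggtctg
Itgax, chr7:128129300-128129549, plus strand: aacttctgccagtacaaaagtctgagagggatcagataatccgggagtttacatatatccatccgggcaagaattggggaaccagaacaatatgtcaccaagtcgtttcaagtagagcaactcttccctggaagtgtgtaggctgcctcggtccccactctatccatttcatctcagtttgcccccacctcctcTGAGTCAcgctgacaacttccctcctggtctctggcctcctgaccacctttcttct
The AP-1 letters began 9 bases before the start of Trem2 and 56 bases before that of Itgax, and the PU.1 letters 113 bases before that of Spp1. Among all 32851 RefSeq promoter windows of the same length, 6.75% held the AP-1 letters and 2.44% the PU.1 letters. The E-box, M-box and CLEAR letters were in none of the 11 windows, against 6.02%, 3.25% and 0.241% of all windows. These matches describe the letters of the windows only.

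The listed genes are a selection rich in differences between the groups, which sets the background for every count. Genes that reached 10 normalized counts in 3 or more libraries were tested with limma on log2(value + 1), and a gene is said to rise or fall where its adjusted p is under 0.05. Of 10854 tested genes, 41.3% rose and 39.2% fell (80.4% in either direction), and in 49.6% all 3 grafts lay above all 3 libraries before grafting (in 48.0% below). The median log2 fold change was 0.28. Rises made up 51.3% of the calls, 40.8% with equal upper quartiles and 25.6% under ribosomal scaling, which sets ribosomal protein genes to no change and shifts the median gene by -0.77 on the log2 scale. Under ribosomal scaling 1909 of the 10854 tested genes rose and 5543 fell, the background for each count given under it. In bulk tissue, a gene's level in each cell and the number of cells that express it cannot be told apart. Summed adipocyte markers (11 genes) were 483503 to 658224 before grafting and 6289 to 28101 in grafts, the highest in graft replicate 1, and summed macrophage markers (13 genes) went from 29794 to 34604 up to 218178 to 239127. What part these shifts in tissue makeup have in the values below was not tested.

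All 10 lipid-associated macrophage genes rose, against 41.3% of all tested genes, and in all 10 the grafts did not overlap the libraries before grafting, against 49.6% of tested genes with grafts above and 48.0% with grafts below. The count of rises was 9 under each of the 4 other scalings and in 6 further alternatives, which all lost Itgax. Their log2 fold changes ran from 1.25 for Itgax to 9.14 for Spp1, with a median of 3.21 against 0.28 for all tested genes. Together their share of all listed values was 0.0483 to 0.0534% before grafting and 0.369 to 0.477% afterwards. Spp1 alone made up 35.0 to 42.8% of that sum in grafts and at most 0.814% before.

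**Figure D1:**
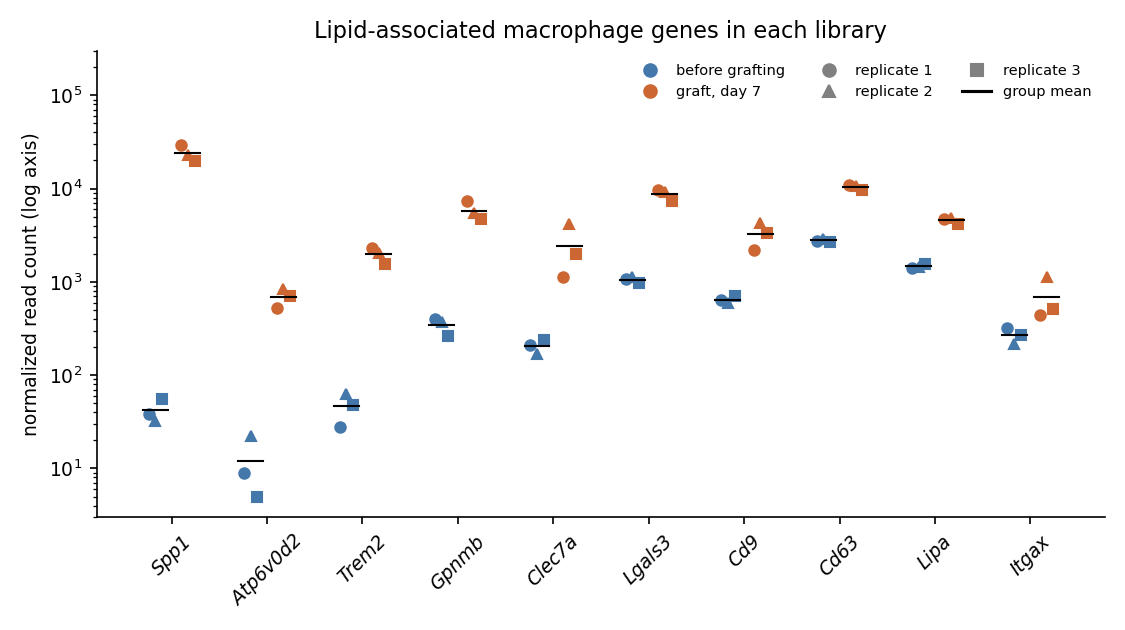
Normalized read counts (log axis) of the 10 genes in each library, before grafting (blue) and at day 7 (orange), with marker shape for the replicate and a line for the group mean. For every gene the 3 grafts lie above the 3 libraries before grafting, by the widest margin for Spp1 and the narrowest for Itgax.

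Trem2 (chromosome 17, 48346401 to 48354147, plus strand, GRCm38), the lipid receptor at the head of the programme, had 27.6, 62.8 and 48.2 normalized counts before grafting and 2293, 2053 and 1562 in grafts. Every graft was thus at least 24.9 times the highest library before grafting. The mean went from 46.2 ± 17.7 to 1969 ± 373 (SD, n = 3). The log2 fold change was 5.44 (SE 0.29, adjusted p = 9.69e-06), and 1.54% of tested genes had a larger one. Of 17 tested genes of the signal chain of TREM2 and dectin-1, 14 rose and 0 fell. Their median change was 1.63 on the log2 scale, or 0.87 and 10 rises under ribosomal scaling. Tyrobp, the adaptor that carries the TREM2 signal, went from 632.8 ± 45.3 to 6350 ± 274 (log2 fold change 3.33). Pik3ap1, an adaptor to phosphoinositide 3-kinase, and Card9, which links dectin-1 to NF-kB, had log2 fold changes of 2.76 and 2.73. The kinase gene Syk, shared by both receptors, rose by 1.57, while Plcg2 (0.61, adjusted p = 0.0873) and Nfatc1 (0.50, adjusted p = 0.0585) missed the threshold.

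Genes of TREM2 ligands and of its shedding from the cell surface went both ways, with 5 of 10 tested rising and 5 falling (median -0.03), or 1 rising and 5 falling under ribosomal scaling. The sheddase genes Adam17 and Adam10 rose, from 1435 ± 98 to 4956 ± 116 and from 1987 ± 59 to 4167 ± 366. Apoc1, an apolipoprotein gene, fell from 1020 ± 421 to 63.8 ± 21.9, and Lpl, a lipase gene that adipocytes express strongly, from 146784 to 6909. The growth factor genes Csf1 and Il34, both ligands of the CSF1 receptor, went apart, Csf1 rising by 0.91 and Il34 falling by 2.86 on the log2 scale. Apoe was not analysed here, as it is outside the table. The other genes of the Trem cluster on the same chromosome included 2 with few reads before grafting: Trem1, an amplifier of inflammation in neutrophils and monocytes, went from 7 to 5412 reads over 3 libraries, and Trem3 from 4 to 1043. The 7 tested in that cluster included Nfya and Foxp4, transcription factor genes outside the Trem family. Of the 7, 5 rose, Treml4 by 3.59, and Treml2 fell by 1.08. Without before replicate 3 or without graft replicate 3, 3 rose, and Treml2 missed the threshold there and without replicate 1 of either group. Under ribosomal scaling 3 rose and 2 fell.

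Clec7a (chromosome 6, 129461591 to 129472779, minus strand) encodes dectin-1, a receptor for fungal beta-glucan, and the table gives it the biotype polymorphic pseudogene. It had 208, 170 and 236 normalized counts before grafting and 1132, 4200 and 1979 in grafts. Graft replicate 2 was 3.71 times replicate 1, the widest spread of the 10 genes. The mean rose 11.9-fold, or 7.60-fold without graft replicate 2, and the log2 fold change was 3.37 (SE 0.42, adjusted p = 0.000868). Other lectin genes on the same chromosome, not all of them close to Clec7a, moved in both directions. Of 13 tested, 7 rose and 5 fell, or 3 fell without before replicate 1 or 3. Clec4d, Clec4e and Olr1, which encode the receptors MCL, Mincle and LOX-1, led the rises with log2 fold changes of 10.90, 10.09 and 6.11. Clec9a, a marker of cross-presenting dendritic cells, and Clec2i fell by 1.96 and 2.96 on the log2 scale.

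Itgax (chromosome 7, 128129547 to 128150657, plus strand) encodes CD11c, the alpha chain of a beta 2 integrin found on dendritic cells and on macrophages of inflamed fat. It had 318, 217 and 268 normalized counts before grafting, and 438, 1119 and 507 in grafts, so that the lowest graft was 1.38 times the highest earlier library. Its log2 fold change of 1.25 (SE 0.33, adjusted p = 0.0389) was the smallest of the 10. The call was lost in 10 of 17 alternatives, including all 4 other scalings, where the log2 fold change was 0.48 to 1.13 and the adjusted p 0.0514 to 1. The ratio of group means was 2.57, and 1.77 without graft replicate 2. Among its relatives, Itgam and Itgb2 rose further. Itgam, which encodes the CD11b chain, went from 263.3 ± 18.6 to 5337 ± 490, and the shared partner chain gene Itgb2 from 1687 ± 297 to 9984 ± 1077. Itgad, a further alpha chain, had 53.2, 33.9 and 2.97 normalized counts in grafts (log2 fold change 1.19, adjusted p = 1), Itgal was not analysed here, and Itgae, the CD103 chain of T cells and dendritic cells, fell by 4.19. Icam1, the gene of a beta 2 integrin ligand, rose by 1.80. Of the 10 tested genes of beta 2 integrins and their activators, 7 rose and 1 fell.

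Dendritic cells are the other main source of Itgax in fat. Of 10 tested dendritic cell markers, 7 fell and 1 rose (median log2 fold change -1.94), with Cd209a, Itgae and Ccr7 in the lead, and 4 fell without before replicate 1 or 3. Among the others, the transcription factor gene Zbtb46 went from 666.2 to 177.5, Xcr1 from 125.7 to 21.3 and Flt3 from 277.2 to 88.6. In the same graft replicate in which Itgax was highest, Flt3 had 153.2 normalized counts against 50.2 and 62.3 in replicates 1 and 3. Ccr7, the homing receptor of migrating dendritic cells and T cells, had 332.6 against 69.3 and 49.5. Summed over the marker list, dendritic cell genes were 23912 to 33711 before grafting and 8005, 20855 and 15341 in graft replicates 1, 2 and 3, with no listed marker at 0 in all grafts. Zbtb46, Xcr1 and Flt3 made up a small part of these sums, which rest mainly on other genes of the list. Summed T and NK cell markers (254, 693 and 408 in graft replicates 1, 2 and 3) were also highest in replicate 2. So were summed B and plasma cell markers (203, 433 and 164). What part any of these cells have in the Itgax value was not tested.

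**Figure D2:**
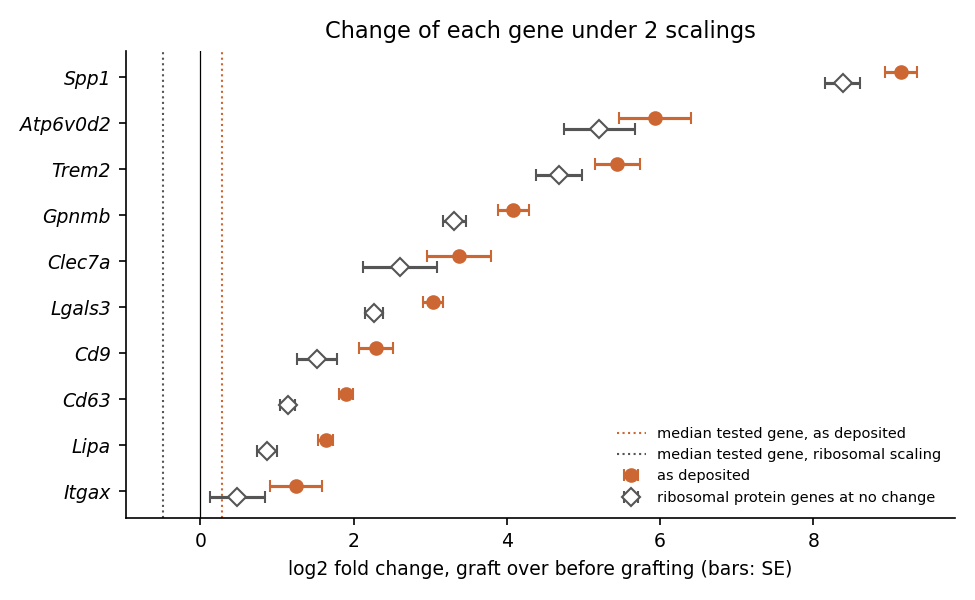
Log2 fold changes (bars, SE) of the 10 genes with the values as deposited (filled) and with ribosomal protein genes set to no change (open), and the median of all tested genes under each scaling (dotted lines). Itgax is the one gene whose call is lost under the second scaling (log2 fold change 0.48).

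Spp1 (chromosome 5, 104435118 to 104441050, plus strand) encodes osteopontin, a secreted matrix protein and cytokine that binds integrins and CD44. It had 38.5, 32.4 and 55.1 normalized counts before grafting and 29305, 23020 and 19827 in grafts. The lowest graft was 360 times the highest library before grafting. The log2 fold change was 9.14 (SE 0.21, adjusted p = 5.65e-07), and 0.175% of tested genes had a larger one. The predicted gene Gm42793 shares 309 exonic bases with Spp1 on the same strand and had 28.1, 86.3 and 55.4 normalized counts in grafts, or 0.235% of the Spp1 mean. Of 13 tested genes of osteopontin receptors, cleavage and family, 12 rose and 0 fell, or 7 and 1 under ribosomal scaling, and 1 fell without before replicate 2. Mmp9, a metalloproteinase that cleaves osteopontin, rose by 5.77 on the log2 scale, the fibronectin and osteopontin receptor gene Itga5 by 3.43 and Cd44 by 3.39.

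Lgals3 (chromosome 14, 47367751 to 47386160, plus strand) encodes galectin-3, which binds galactosides on glycoproteins and coats damaged lysosomes. It had 1071, 1132 and 968 normalized counts before grafting and 9633, 9298 and 7279 in grafts, an 8.27-fold rise in means (log2 fold change 3.04, SE 0.13, adjusted p = 3.12e-06). The other galectins had smaller changes or fell. Lgals1, Lgals8 and Lgals9 had log2 fold changes of 0.58, 0.68 and 0.53 and turned to -0.19, -0.08 and -0.24 under ribosomal scaling, so that their direction depends on the scaling. Lgals12, the galectin of adipocytes, fell from 6589 ± 885 to 45.2 ± 47.8, and Lgals4 from 309.6 ± 74.2 to 49.8 ± 16.3. Of 6 tested relatives of galectin-3, 3 rose and 2 fell as deposited, and 1 rose without before replicate 3.

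Lipa (chromosome 19, 34492318 to 34527474, minus strand) encodes lysosomal acid lipase, which frees fatty acids and cholesterol from engulfed lipid. It had 1398, 1460 and 1550 normalized counts before grafting and 4707, 4838 and 4167 in grafts, a 3.11-fold rise (log2 fold change 1.63, SE 0.10, adjusted p = 1.34e-05). Its replicates were close, with a coefficient of variation of 7.78% in grafts. Other lipases moved the other way: of 10 tested, 8 fell and 1 rose, the falls led by Pnpla3 (-9.68), Ces1d (-8.86) and Ces1f (-6.34). The adiponutrin gene Pnpla3 and the carboxylesterase gene Ces1d are active in adipocytes, and adipocyte markers fell in the same libraries. What part adipocytes have in the lipase values was not tested. The 1 that rose was Lipn, a lipase gene with 0 reads before grafting and 76 reads in all grafts.

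Downstream of acid lipase, genes of cholesterol and lipid handling were mostly higher: of 22 tested, 16 rose and 6 fell, or 9 and 7 under ribosomal scaling. Soat1, which re-esterifies cholesterol, went from 589.2 ± 134.2 to 4229 ± 494. Npc1, which exports cholesterol from the lysosome, and Nceh1, a cholesteryl ester hydrolase, rose by 1.71 and 2.35 on the log2 scale. The scavenger receptor genes Olr1 and Msr1 rose by 6.11 and 4.66. The largest falls were those of the neutral lipase genes Lipe, from 17905 to 721, and Pnpla2, from 42401 to 1681, both main enzymes of fat breakdown in adipocytes. Cd36, a fatty acid carrier of adipocytes and macrophages, fell by 2.49, and Nr1h3, the gene of the sterol sensor LXR alpha, fell by 1.31.

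Gpnmb (chromosome 6, 49036546 to 49070929, plus strand) encodes a membrane glycoprotein of melanosomes and lysosomes that is strongly made by lipid-loaded macrophages. It had 395, 368 and 262 normalized counts before grafting and 7282, 5462 and 4694 in grafts, a 17.0-fold rise (log2 fold change 4.08, SE 0.20, adjusted p = 6.42e-06). Melanocytes also express Gpnmb. Of their markers, Dct, Mlana and Tyr were at 0 reads in all 3 grafts, and the 4 listed melanocyte markers together reached at most 55.2 normalized counts there. Pmel, Tyrp1 and Slc45a2 are outside the table. What part melanocytes have in the Gpnmb values was not tested. Of the 4 tested relatives and partners of GPNMB, Cd44 and Sdc4, which encode 2 of its binding partners, rose by 3.39 and 2.90, and Dct and Rab38 fell. Without any 1 library before grafting, or without graft replicate 3, 1 of the 4 fell in place of 2.

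Atp6v0d2 (chromosome 4, 19876841 to 19922605, minus strand) encodes an inducible d subunit of the vacuolar proton pump, best known from osteoclasts. It had 8.87, 22.3 and 4.92 normalized counts before grafting, the fewest of the 10 genes, and 526, 842 and 703 in grafts. The log2 fold change was 5.94 (SE 0.47, adjusted p = 6.02e-05), and the ratio of means was 57.4, or 100.1 without before replicate 2. Its general paralog Atp6v0d1 had 2029 before and 2477 in grafts and missed the threshold (0.29, adjusted p = 0.137). Under ribosomal scaling Atp6v0d1 fell (-0.47, adjusted p = 0.0461), so that its direction depends on the scaling. The log2 ratio of Atp6v0d2 to Atp6v0d1 was -7.49, -6.59 and -8.45 before grafting and -2.29, -1.53 and -1.79 in grafts. The ratio differed by 5.64 between the groups (exact two-sided permutation test, p = 0.1, the smallest that 3 against 3 libraries can give).

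The rest of the pump moved far less. Of 17 other tested vacuolar ATPase genes, 13 rose and 1 fell with a median of 0.81, but under ribosomal scaling 6 rose and 4 fell with a median of 0.04. Tcirg1, the a3 subunit that is also enriched in osteoclasts, rose by 2.30, Atp6v1a by 1.62 and Atp6v0c by 1.52, and the subunit gene Atp6v0e2 fell by 3.89. Osteoclast and cell fusion genes were higher in 16 of 19 tested and lower in 2. Ctsk, the collagen-cutting protease of osteoclasts, went from 767.3 ± 133.5 to 7515 ± 1505, and the fusion genes Dcstamp and Ocstamp from 3.98 ± 3.57 to 118.8 ± 64.2 and from 7.93 ± 2.53 to 171.0 ± 43.8. Acp5, the tartrate-resistant acid phosphatase of osteoclasts, fell from 6711 ± 1337 to 3519 ± 554, and Mst1r, a receptor kinase gene, by 0.95 on the log2 scale.

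**Figure D3:**
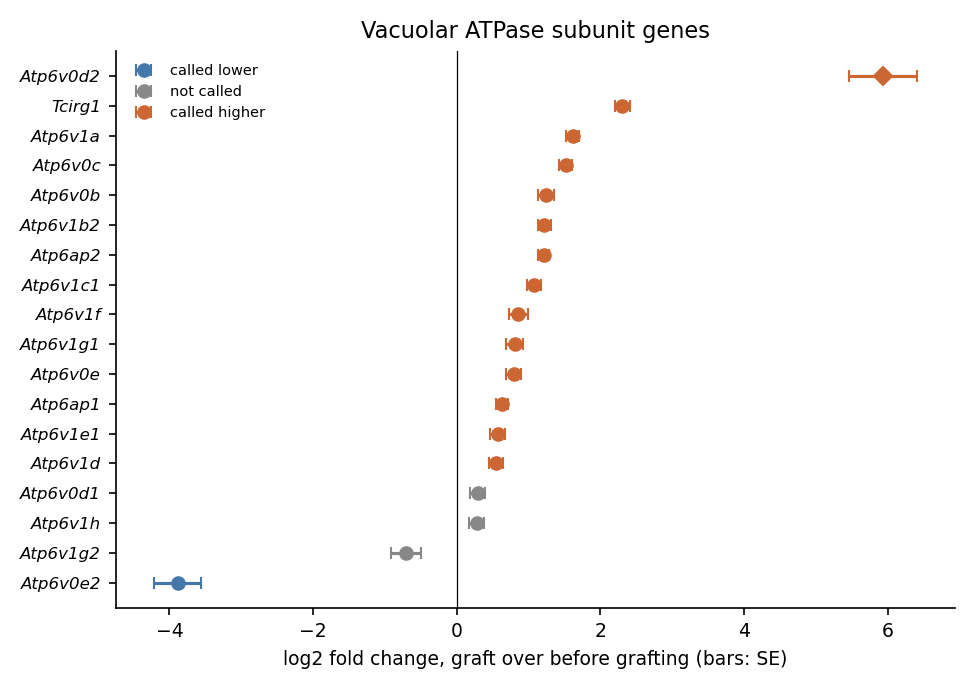
Log2 fold changes (bars, SE) of Atp6v0d2 (diamond) and the 17 other tested vacuolar ATPase genes, coloured by whether they rose (orange), fell (blue) or missed the threshold (grey). Atp6v0d2 lies at 5.94 and the next gene, Tcirg1, at 2.30, with the paralog Atp6v0d1 at 0.29.

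The MITF and TFE factors drive lysosomal genes, Gpnmb and Atp6v0d2 among their known targets. Of 12 tested factors and partners, 8 rose and 0 fell, and 1 fell without graft replicate 2. With median ratio scaling, equal listed totals or equal upper quartiles, 6 rose and 1 fell. Under ribosomal scaling 2 rose and 2 fell, against 1909 rises and 5543 falls among all 10854 tested genes. Tfec, a family member expressed mainly in myeloid cells, went from 57.2 ± 8.2 to 410.2 ± 87.7, and Mitf from 397.2 ± 152.7 to 998 ± 67, the latter with a log2 fold change of 1.41, or 0.64 (adjusted p = 0.402) under that scaling. Fnip2, a partner of folliculin, rose by 2.77. What part these factors have in the values of Gpnmb and Atp6v0d2 was not tested.

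Cd9 (chromosome 6, 125460266 to 125494791, minus strand) is a surface tetraspanin that marks the macrophages of crown-like structures and is also made by many other cells. It had 639, 597 and 703 normalized counts before grafting and 2187, 4301 and 3341 in grafts, a 5.07-fold rise (log2 fold change 2.29, SE 0.22, adjusted p = 0.000181). An antisense gene within its locus that shares 0 exonic bases with it, Gm28809, reached 1.64% of the Cd9 mean in grafts. Another gene on the opposite strand, Gm26728, shares 218 exonic bases with Cd9 and was not analysed here, and strand use in counting is not given in the sources used here. Cd63 (chromosome 10, 128900989 to 128912822, plus strand), the tetraspanin of late endosomes and lysosomes, had 2752, 2907 and 2671 before grafting and 10896, 10584 and 9731 in grafts. Its log2 fold change was 1.90 (SE 0.09, adjusted p = 5.38e-06), with the tightest replicates of the 10 genes (coefficient of variation in grafts 5.80%).

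Other tetraspanins moved in both directions: of 19 tested, 6 rose and 11 fell (median -1.20). The rises numbered 2 under ribosomal scaling, and 9 fell without before replicate 1 or 3 or without graft replicate 3. Tspan11 rose by 3.44, the leukocyte tetraspanin gene Cd53 by 1.90 and the sparsely read Tspan8 by 1.80, while Cd81, the closest relative of Cd9, went from 5249 ± 659 to 2273 ± 187. Tspan10 went from 234 reads to 1 read over 3 libraries, and Tspan12 and Tspan7 fell by 2.81 and 1.86. Among 11 tested partners of CD9 and CD63, 8 rose, and Syt7, a calcium sensor of lysosome exocytosis, fell by 3.12 (2 fell without graft replicate 1). Timp1, a protease inhibitor that binds CD63, went from 16.9 ± 2.0 to 8044 ± 1758, and Ptgfrn, a direct partner of CD9, from 927.7 ± 93.7 to 6819 ± 1180.

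Platelets are rich in both tetraspanins, and their markers were mixed: of 5 tested, 3 rose and 2 fell. Pf4 and Ppbp rose, from 407.1 ± 21.2 to 6546 ± 4096 and from 16.8 ± 12.2 to 1247 ± 1183, while Itga2b and Clec1b fell. Of these falls 1 was lost without before replicate 1 or 3. Summed over 5 listed markers, the list was at 672 to 773 before grafting and 13840, 6097 and 3751 in graft replicates 1, 2 and 3. Most of this sum in grafts came from Pf4 and Ppbp, so it does not show the markers that fell. Cd9 was lowest in graft replicate 1, where this sum was highest. Cd63 was highest in graft replicate 1 and lowest in replicate 3, the order of this sum. What part platelets have in the Cd9 and Cd63 values was not tested. Mast cells carry CD63 as well: of 5 tested markers Hdc rose by 6.93, a gene also active in neutrophils, and the other 4, the proteases Cpa3, Mcpt4, Cma1 and Tpsb2, had log2 fold changes of -2.33 to -1.45 that missed the threshold, though all 4 fell without graft replicate 3 and 2 fell without graft replicate 1.

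The wider programme of lipid-associated macrophages included 26 other tested genes, of which 19 rose and 4 fell (median 1.43 on the log2 scale). Under ribosomal scaling 15 rose and 4 fell (median 0.67). Apoe, Npc2, Il7r and Folr2 of that list are outside the table. The chemokine genes Ccl3 and Ccl4 and the elastase gene Mmp12 led the rises, at 9.90, 8.38 and 6.48. Plin2, which coats lipid droplets in macrophages, went from 5916 ± 1455 to 16498 ± 3054, and Ctsl, a lysosomal protease gene, rose by 2.44. The 4 that fell were Lpl (-4.45), Fabp4 (-4.17), Cd36 (-2.49) and Igf1 (-2.12). The first 3 of these are abundant in adipocytes, and Fabp4 is also on the adipocyte list. What part adipocytes have in these falls was not tested.

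General macrophage markers gave a yardstick measured in the same libraries. Of 13 tested, 12 rose and 0 fell (median log2 fold change 2.71), with Msr1, Itgam and Cd14 in the lead, and Mertk missed the threshold (0.49, adjusted p = 0.0815). Cd163 and Mrc1 were not analysed here. For each gene the mean log2 level of these markers was taken from its own log2 level in each library. On that measure 5 genes were higher in all 3 grafts than in all 3 libraries before grafting: Spp1 by 6.41, Atp6v0d2 by 3.21, Trem2 by 2.71, Gpnmb by 1.35 and Lgals3 by 0.31. Another 3 were lower: Itgax by 1.48, Lipa by 1.10 and Cd63 by 0.83. Each of these 8 differences had p = 0.1 by the exact two-sided permutation test, the smallest this design allows. The differences for Cd9 (-0.44, p = 0.4) and Clec7a (0.64, p = 0.5, same exact permutation test) lay within the spread of the libraries, with groups overlapping. Itgam and Cd14 are also expressed by neutrophils. With Adgre1, Cd68 and Csf1r alone as the yardstick, an alternative added after seeing the data, the 5 higher genes differed by 0.41 to 6.51 and the direction was the same for all 10.

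**Figure D4:**
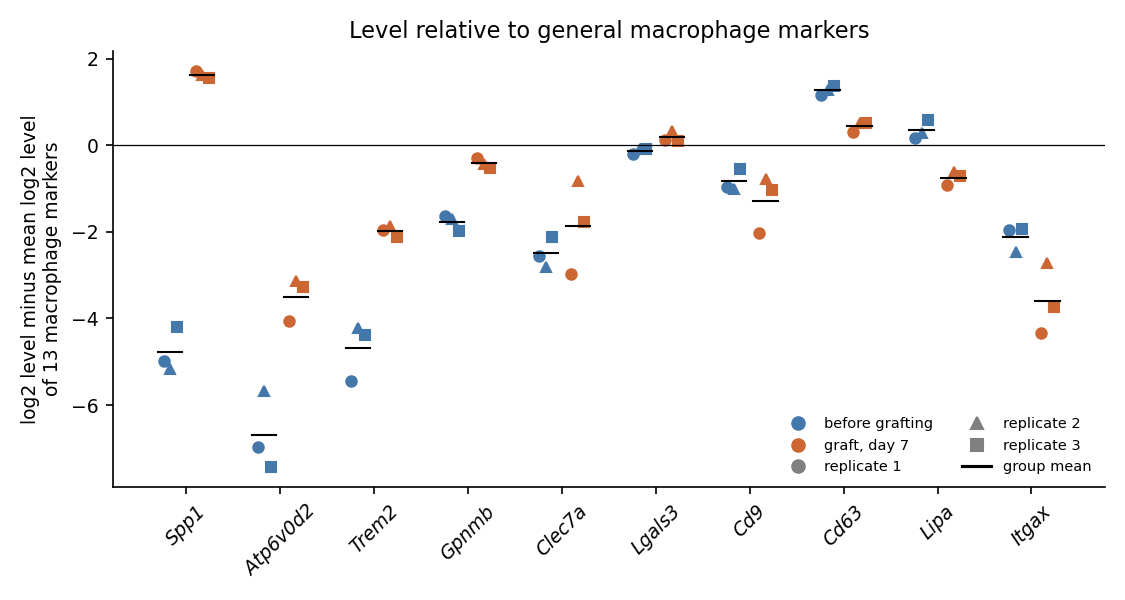
Log2 level of each gene minus the mean log2 level of 13 macrophage markers in the same library, before grafting (blue) and at day 7 (orange), with marker shape for the replicate and a line for the group mean. The genes are ordered from Spp1, which is 6.41 higher in grafts, to Itgax, which is 1.48 lower, and the groups of Cd9 and Clec7a overlap.

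The genes did not peak in the same graft. Spp1, Trem2, Gpnmb, Lgals3 and Cd63 were highest in graft replicate 1 and lowest in replicate 3. Cd9, Clec7a, Itgax and Atp6v0d2 were highest in replicate 2 and lowest in replicate 1, and Lipa was highest in replicate 2 and lowest in replicate 3. Clec7a lay 0.99 above and 0.90 below the graft mean on the log2 scale in replicates 2 and 1, and Itgax 0.83 above and 0.52 below. Macrophage markers were not ordered as Clec7a or Itgax were, their sums being 239127, 218178 and 220543 in replicates 1, 2 and 3. Graft replicate 1 also held the most adipocyte marker signal (28101 against 8253 and 6289). With 3 libraries, these orders are a description.

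**Figure D5:**
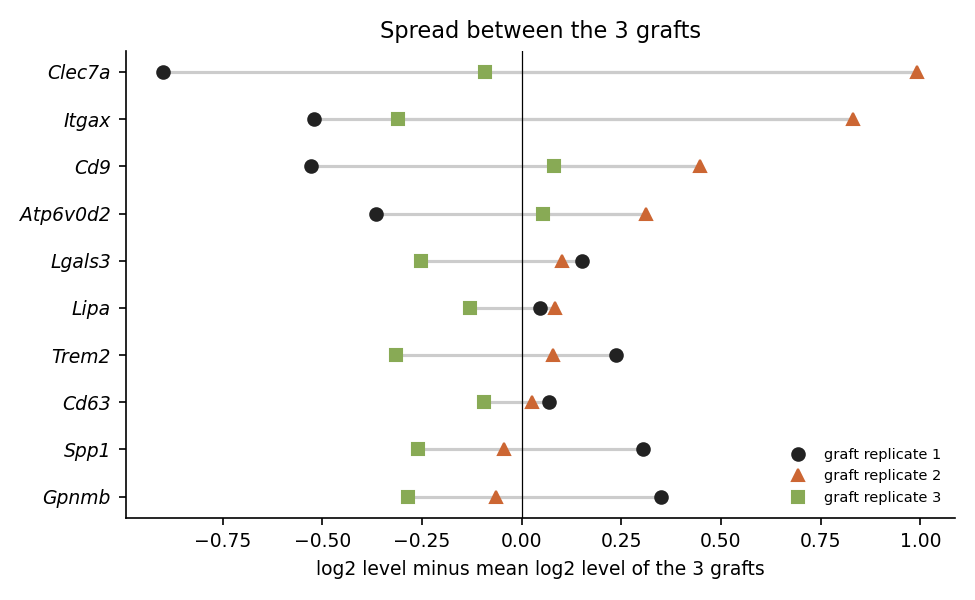
Log2 level of each gene in each graft minus the mean of the 3 grafts. Clec7a and Itgax are spread most widely, with replicate 2 highest (0.99 and 0.83), while for Gpnmb and Spp1 replicate 1 is highest.

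Levels can be compared between genes only per length, here as mean normalized counts per kilobase of the deposited gene length. Before grafting the order was Cd63 (754), Lgals3 (569), Lipa (495), Cd9 (316), Clec7a (77.6), Itgax (55.6), Gpnmb (52.4), Spp1 (25.5), Trem2 (9.34) and Atp6v0d2 (4.43). Library ranges overlapped between the neighbours Lgals3 and Lipa, Clec7a and Itgax, Itgax and Gpnmb, and Trem2 and Atp6v0d2. In grafts it was Spp1 (14594), Lgals3 (4702), Cd63 (2826), Cd9 (1603), Lipa (1540), Clec7a (924), Gpnmb (892), Trem2 (398), Atp6v0d2 (254) and Itgax (143), with overlaps between Cd9 and Lipa, Lipa and Clec7a, Clec7a and Gpnmb, and Atp6v0d2 and Itgax. Spp1 thus moved from the eighth place to the first and Itgax from the sixth to the last. For 9 of the 10 genes the deposited length equals all annotated exons merged, which counts rarely used exons and so lowers the value per kilobase. The length of Lipa is 2969 bases against 6780 merged in GENCODE M21.

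Likeness of pattern was measured as the root mean square difference in log2 level over the 6 libraries, after centring each gene. For Trem2 the nearest of 9514 candidates were Ccl7, a monocyte chemokine gene (0.31 on the log2 scale), Gdnf (0.34), Hilpda, which restrains lipid breakdown (0.37), the heme-degrading Hmox1 (0.37) and the protease gene Adamts4 (0.41). For Gpnmb they were Adssl1 (0.14), Nxpe5 (0.15), the complement receptor gene C3ar1 (0.17), Etv4 (0.18) and Wfdc17 (0.19). Gdnf and Etv4 had few reads before grafting, with means of 2.65 and 3.98 normalized counts.

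Other cell types also changed in these libraries. All 8 tested neutrophil markers rose, with a summed level of 413 to 676 before grafting and 56604, 61276 and 99366 in graft replicates 1, 2 and 3. Neutrophils express Clec7a and Itgam. Monocyte markers rose in 6 of 7, and their sum was 95766, 113212 and 73012 in graft replicates 1, 2 and 3, highest in replicate 2 as Clec7a and Itgax were. All 8 tested T and NK cell markers and all 7 B and plasma cell markers fell. Of 7 fibroblast and progenitor markers 3 rose and 2 fell (1 without before replicate 1). Their sum went from 99821 to 128741 before grafting up to 586912, 993412 and 878844 in graft replicates 1, 2 and 3, the order of Cd9 and Clec7a, and most of it came from the collagen genes Col1a1 and Col3a1. Of 8 Schwann cell markers 1 rose and 7 fell (4 without before replicate 3 or without graft replicate 3), of 6 smooth muscle and pericyte markers 2 rose and 4 fell, and of 3 endothelial markers 2 fell. Summed epithelial and mesothelial markers reached at most 89.0 and 159.7 normalized counts in any library, and none of the 7 skeletal muscle markers is in the table. Their part in the values of the 10 genes was not tested.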

How the data were processed

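Fat of wild type C57BL/6 mice was sequenced before grafting and at day 7 after it, with 3 libraries per group. The deposited signal is, from its values, the authors' gene reads divided by 1 size factor per library: within each library 100% of values came out, to 0.01 reads, as multiples of a common step. The deposited per-sample tables were identical to the series table, and the authors' group means (also a deposited signal) were not used. Deposited gene lengths (unit: other) served for levels per kilobase. Bowtie 0.12.2, HISAT2 2.0.5, mm8 and mm9 are named in the submitters' processing notes, but the coordinates match GRCm38: of 12163 genes, 12029 lay within 1000 bp of GENCODE M21. The sources used here do not name the counter, strand use or gene filter, and the full depth is unknown because only selected genes are listed.

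The planned count models were not used, since the table holds normalized values. For genes that reached 10 in 3 or more libraries, limma 3.58.1 (R 4.3.3) was run on log2(value + 1), with trend and robust settings, two-sided, and group as the only term. Benjamini-Hochberg adjustment ran over 55450 annotated genes, unlisted ones at the highest p. The fit was tested on simulated data. Python 3.11.15 with pandas 2.3.3 and scipy 1.17.1 handled tables. The members and gene lists were chosen with earlier results of these data known. Named are the 10 genes, in gene lists the up to 3 called genes with the largest change in each direction, some further list members for their role (chosen after their values were seen), Atp6v0d1, Itgam, Itgal and Itgad whatever their value, and the 5 nearest patterns to Trem2 and Gpnmb. Marker lists are given mainly by counts and sums. Genes of the lists that are outside the table enter none of these counts. Alternatives covered pseudocount, filter, scaling, variance model, adjustment, replicate block and leaving out each library. The submitters call the replicates biological without naming animals or pools, so p-values measure the spread between these libraries.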

Additional observations from a re-analysis of the deposited data

How the results depend on the processing

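All 10 genes kept their direction in all 17 alternatives run, and 9 of them also stayed past the threshold. The exception was Itgax, lost in 10 alternatives: after median ratio scaling (1.13, adjusted p = 0.0514), equal listed totals (1.12, adjusted p = 0.0557), equal upper quartiles (1.04, adjusted p = 0.0845), ribosomal protein genes at no change (0.48, adjusted p = 1), limma without trend (adjusted p = 0.0991), the replicate block (adjusted p = 0.0969), and without each library before grafting or graft replicate 3 (adjusted p = 0.0519 to 0.191). The cause was not tested. Without graft replicate 2 its log2 fold change was 0.83 and the call held. Over all tested genes, calls numbered 8730, with 7556 under the replicate block, where 9 of the 10 genes were called. Leaving out 1 library gave 7080 to 8144. Same-numbered libraries correlated at -0.157, -0.127 and 0.041 after removing group means, so the numbers were not read as pairs. The log2 ratio of Atp6v0d2 to Atp6v0d1 differed between groups by 5.17 to 6.11 without 1 library and by 5.16 to 5.72 at other pseudocounts. Without graft replicate 1, 6 genes in place of 5 had a higher level relative to the macrophage markers in all remaining grafts than in all libraries before grafting. Not run were edgeR, DESeq2 and TMM scaling, which had been planned for raw counts, whereas the deposited values are normalized. Reads worked back from them served only to describe low values. Before grafting, Atp6v0d2 rests on 9, 22 and 5 reads in the 3 libraries, which limits the precision of its fold change.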
